A study of Mus musculus with 250 samples.

Results

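Upper hair follicle identity is read here from 9 genes chosen by symbol: Lrig1, Gata6, Krt79, Plet1, Cst6, Defb6, Sostdc1, Fst and Atp6v1c2. All 9 had a row in the deposited table of 27003 genes. They were measured in 250 single epidermal cells from mouse tail skin, with libraries made by Smart-Seq2, which covers whole transcripts of 1 cell and does not tag single molecules. Every cell came from a Lrig1CreER/Rosa-TdTomato mouse, in which a Cre recombinase named for the Lrig1 gene switches on a red reporter that the progeny inherit, and every cell was sorted as Lrig1-lineage and Sca1+ (Sca1 is the product of Ly6a). The groups were 85 cells of the wound bed, 81 cells of the distal memory region and 84 cells of a control region outside the memory region. All 3 groups shared the genotype, the sort and the time label of 8 weeks, and the further abbreviation in that label is not spelled out there. Each region was split over 2 batches, with 30 and 55 wound bed cells, 32 and 49 distal cells, and 28 and 56 control cells in batches 1 and 2, each set on a plate of its own. Pairs of values are batch 1 and then batch 2 throughout. No animal is named, so each region counted as 1 sample, no test between regions was run, and region and plate cannot be told apart within a batch.

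The upper hair follicle comprises the isthmus, the junctional zone with the sebaceous duct, and the infundibulum that opens to the surface. Lrig1 marks stem cells of the junctional zone and isthmus, which maintain the infundibulum and sebaceous gland, and these cells can contribute to the interfollicular epidermis after injury. Gata6 is a transcription factor of the duct lineage, and Krt79 is a keratin of the duct and infundibulum.

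Krt79 and Defb6 were among the 3 pairs with the highest correlation across cells, described below, so their promoter windows are shown, 250 bases before to 50 after the start, from RefSeq on GRCm38.p6. Capitals mark matches to the letters bound by GATA factors, searched on both strands as GATA with A or T before it and A or G after it; no matches overlapped in the windows shown.
Krt79 (chr15:101940275-101940574, minus strand): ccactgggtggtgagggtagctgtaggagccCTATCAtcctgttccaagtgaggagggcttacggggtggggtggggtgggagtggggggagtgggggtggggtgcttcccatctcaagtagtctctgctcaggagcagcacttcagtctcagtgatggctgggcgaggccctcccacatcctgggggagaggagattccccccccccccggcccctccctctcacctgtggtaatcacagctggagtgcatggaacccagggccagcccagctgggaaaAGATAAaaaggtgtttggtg
Defb6 (chr8:19225228-19225527, plus strand): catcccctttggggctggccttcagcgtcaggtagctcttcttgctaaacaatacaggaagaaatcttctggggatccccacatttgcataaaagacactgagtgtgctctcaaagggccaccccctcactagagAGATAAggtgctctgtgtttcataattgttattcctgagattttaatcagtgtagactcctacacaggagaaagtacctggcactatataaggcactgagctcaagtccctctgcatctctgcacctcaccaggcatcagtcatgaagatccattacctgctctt
The Krt79 window held one match at position -219 and another downstream of the start, and the Defb6 window held one at position -115. The windows of Lrig1, Plet1 and Atp6v1c2 held none, so 2 of the 5 windows searched had a match, as did 29.8% of all 32851 windows of 300 bases. A match is a run of letters and not a measured site. Gata6, Cst6, Sostdc1 and Fst are named only.

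In GENCODE M21 on GRCm38, Lrig1 spans 94604529 to 94700158 of chromosome 6 on the minus strand, Krt79 spans 101929332 to 101940324 of chromosome 15 on the minus strand, and Plet1 spans 50494525 to 50505482 of chromosome 9 on the plus strand. Gata6 lies on the plus strand of chromosome 18 (11052064 to 11085635) and Defb6 on the plus strand of chromosome 8 (19225478 to 19228209). Cst6 lies on the minus strand of chromosome 19 (5344705 to 5349574) and Fst on the minus strand of chromosome 13 (114452290 to 114458951). Sostdc1 (36314139 to 36318452, plus strand) and Atp6v1c2 (17284721 to 17329359, minus strand) share chromosome 12.

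Reads per plate, summed over cells, were 1751116 and 2898446 in the wound bed, 10671470 and 2888806 on the distal plates and 4481121 and 4029606 on the control plates. Median reads per cell were 41206, 47047 and 63690 in wound bed, distal and control cells, and median detected genes were 1662, 2067 and 1876.5. In distal batch 1, 72.8% of reads came from 4 cells that each had over 500000. Satellite-like predicted genes took over 5% of the non-mitochondrial reads in 0 and 1 wound bed cells, 2 and 1 distal cells, and 18 and 6 control cells; results that change without these cells carry both values. Ly6a had a read in 75.3% of wound bed cells, 51.9% of distal cells and 32.1% of control cells, against a sort for its product in all 3 regions.

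The 9 genes were found in fewer cells, and fewer of them per cell, in the wound bed than in the control, with the distal region between them for most of the genes. The wound bed share was smallest for Lrig1, which had a read in 1 of 85 wound bed cells against 14 of 81 distal and 18 of 84 control cells. Wound bed plate sums were below those of the control in both batches for all 9 genes, and distal sums for 7 of 9, beside 27.4% and 23.9% of all genes with a read in at least 10% of cells of a compared region in each batch (Atp6v1c2 was below that limit in the wound bed comparison). Without the satellite-rich cells the counts below control were 7 genes for the wound bed and 4 for the distal region. With every cell weighted equally they were 8 and 5. A gene met the size rule when its plate sums differed at least 2-fold in the same direction in both batches. Fewer cells of a type and less RNA per cell both lower such a sum and cannot be told apart in it. By that rule 5 genes were lower in the wound bed than in the control, 3 were lower in the distal region than in the control, and none was higher in either.

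**Figure D1:**
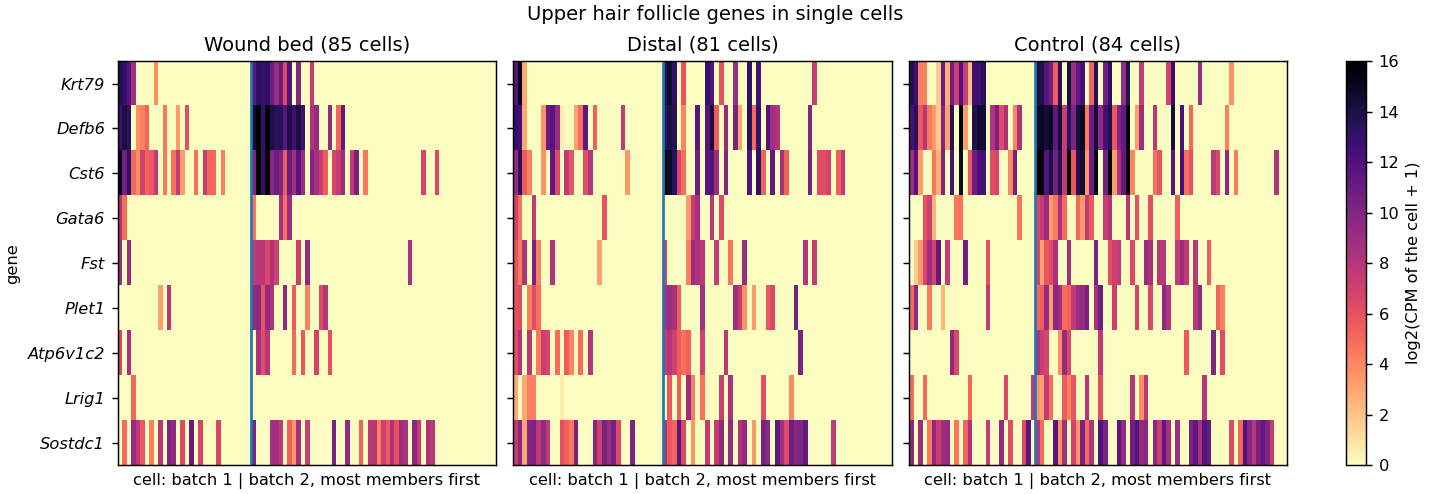
Level of the 9 genes in each of the 250 cells, as log2 of the cell's CPM + 1 (CPM is the read count scaled to a common library total), with 1 column per cell and a blue line between batches. Krt79, Defb6 and Cst6 are dark in the same cells at the left of each batch. A read of all 3 was found in 14 wound bed, 11 distal and 27 control cells. Sostdc1 is spread over both these cells and the remaining cells, with a read in 55.8% and 51.01% of them over all regions.

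Lrig1, a transmembrane protein that restrains receptors of the epidermal growth factor (EGF) family, had a read in 1 of 30 and 0 of 55 wound bed cells, 5 of 32 and 9 of 49 distal cells, and 5 of 28 and 13 of 56 control cells. By region this was 1.18% of wound bed cells (exact 95% Clopper-Pearson interval 0.0298 to 6.38), 17.3% of the distal cells (9.78 to 27.3) and 21.4% of the control cells (13.2 to 31.7). These and all later intervals cover counting error only. Those of shares take cells as independent, although cells of a region share plates and no animal is named. Those of ratios take reads as independent. Without molecular tags many reads can come from 1 molecule, so intervals of ratios can be too narrow. The wound bed interval lay below both others, and the distal and control intervals overlapped. The 0 of 55 cells in wound bed batch 2 allow a share of up to 6.49% by the exact interval, or 5.45% by a floor of 3 cells. Summed per plate and scaled by TMM, a library-size normalisation, Lrig1 stood at 0.553 and 0 CPM in the wound bed, 2.51 and 28.6 CPM in the distal region, and 6.80 and 20.6 CPM in the control. The single wound bed read put the ratio to control at 12.3-fold lower in batch 1 (counting interval 2.01 to 506). Without the satellite-rich cells that ratio was 4.08-fold lower (0.328 to 214.2), from 1 wound bed and 3 control reads. Against the distal region the batch 1 ratio was 4.54-fold lower (0.722 to 188.7). In batch 2, against a floor of 3 counts in the wound bed plate, Lrig1 was at least 22.7-fold lower than in the control and at least 31.5-fold lower than in the distal region. Depth limits this gene: 63.6% of the cells with a Lrig1 read had fewer than 5, and no wound bed cell had 5. Distal and control sums showed no steady order, with log2 ratios of -1.15 and 0.45. Control batch 1 kept 3 Lrig1 reads without the satellite-rich cells, and the distal ratio there was 1.11-fold higher (counting interval 0.327 to 5.85), with a log2 ratio of 0.67 in batch 2. At an equal depth of 10000 reads per cell, 0 of 78 wound bed, 6 of 77 distal and 10 of 83 control cells had a read.

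Plet1, a surface glycoprotein of the isthmus and junctional zone, had a read in 2 of 30 and 10 of 55 wound bed cells, 5 of 32 and 12 of 49 distal cells, and 5 of 28 and 23 of 56 control cells. The shares by region were 14.1% (7.51 to 23.4), 20.99% (12.7 to 31.5) and 33.3% (23.4 to 44.5), and the wound bed interval ended just below the start of the control interval. Plate sums were 4.42 and 81.8 CPM in the wound bed, 19.04 and 42.7 CPM in the distal region, and 96.4 and 122.6 CPM in the control. Both control plates were above the other 4, while wound bed and distal plates overlapped. A single cell held 97.9% of the Plet1 reads of control batch 1. The distal to control log2 ratios were -2.28 and -1.50, which met the size rule, but they were 1.12 and -1.53 without the top cell of each plate. Between wound bed and control the ratios were -4.17 and -0.58. Control batch 1 kept 2 Plet1 reads without the satellite-rich cells. The distal ratio to it was then 12.6-fold higher (counting interval 3.43 to 105.1) and the wound bed ratio 2.94-fold higher (0.587 to 28.4), while the batch 2 log2 ratios were -1.27 for the distal region and -0.40 for the wound bed. In batch 1 the sign of the distal difference thus rested on 1 control cell, and in batch 2 the sign was the same under both exclusions.

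Gata6 had a read in 2 of 30 and 4 of 55 wound bed cells, 4 of 32 and 5 of 49 distal cells, and 6 of 28 and 17 of 56 control cells. The shares were 7.06% of wound bed cells (2.63 to 14.7), 11.1% of the distal cells (5.21 to 20.05) and 27.4% of the control cells (18.2 to 38.2). Gata6 was thus found in a smaller share of wound bed than control cells, with intervals that do not meet, and the distal interval overlapped both. After thinning to equal depth the shares were 3.85%, 7.79% and 14.5%, in the same order, with overlapping intervals. Plate sums were 3.87 and 10.9 CPM in the wound bed, 35.7 and 10.2 CPM in the distal region, and 6.80 and 32.6 CPM in the control. The distal batch 1 sum was the highest of the 6, and 1 cell held 78.5% of its reads. The log2 ratios to control were -0.68 and -1.50 for the wound bed and 2.23 and -1.59 for the distal region, so the distal batches had opposite signs. Without the satellite-rich cells the wound bed ratios were -1.15 and -1.36.

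Krt79 had a read in 5 of 30 and 11 of 55 wound bed cells, 3 of 32 and 11 of 49 distal cells, and 15 of 28 and 21 of 56 control cells. The shares were 18.8% of wound bed cells (11.2 to 28.8), 17.3% of the distal cells (9.78 to 27.3) and 42.9% of the control cells (32.1 to 54.1). Both intervals lay below that of the control and overlapped each other, and at equal depth the shares were 15.4%, 14.3% and 32.5%. Krt79 plate sums were 434.7 and 625.6 CPM in the wound bed, 1458 and 1044 CPM in the distal region, and 2141 and 2537 CPM in the control. No plates of different regions overlapped. Log2 ratios of wound bed to control were -2.30 and -2.02 and met the size rule in all 10 settings run with both batches and a 2-fold limit, whereas the distal to control ratios of -0.55 and -1.28 did not. In cells that had a read, the median Krt79 level was 3477 and 2013 CPM in the wound bed, 3191 and 5374 CPM in the distal region, and 1614 and 2504 CPM in the control. The wound bed median was thus above that of the control in batch 1 and below it in batch 2.

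Defb6, a beta-defensin, one of the antimicrobial peptides of surface epithelia, had a read in 9 of 30 and 17 of 55 wound bed cells, 13 of 32 and 18 of 49 distal cells, and 21 of 28 and 28 of 56 control cells. The shares were 30.6% of wound bed cells (21.05 to 41.5), 38.3% of the distal cells (27.7 to 49.7) and 58.3% of the control cells (47.1 to 69). The wound bed interval lay below that of the control, and the distal interval overlapped both. Plate sums were 741.0 and 4415 CPM in the wound bed, 1984 and 1149 CPM in the distal region, and 9184 and 5547 CPM in the control, so both control plates exceeded the other 4. The distal to control log2 ratios of -2.21 and -2.27 were close between batches and met the size rule in 9 of the 10 settings. The exception was cells with at least 2000 genes, at -0.25 and -2.88. Those of the wound bed to control differed widely, -3.63 in batch 1 and -0.33 in batch 2. Among cells with a read, Defb6 had medians of 35.7 and 7313 CPM in the wound bed, 188.3 and 2224 CPM in the distal region, and 339.6 and 3504 CPM in the control, so the wound bed median was the lowest in batch 1 and the highest in batch 2.

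Cst6 encodes cystatin M/E, a secreted inhibitor of cathepsins and legumain. It had a read in 18 of 30 and 24 of 55 wound bed cells, 12 of 32 and 22 of 49 distal cells, and 16 of 28 and 32 of 56 control cells. The shares of 49.4% (38.4 to 60.5), 41.98% (31.1 to 53.5) and 57.1% (45.9 to 67.9) in wound bed, distal and control cells had overlapping intervals. Plate sums were 763.2 and 7357 CPM in the wound bed, 399.0 and 3504 CPM in the distal region, and 4109 and 17700 CPM in the control. Distal sums were the lowest in each batch, unlike those of the other 8 genes. Cst6 was lower in the distal region than in the control with log2 ratios of -3.36 and -2.34, which met the size rule in all 10 settings. It was also lower in the wound bed than in the control, with ratios of -2.43 and -1.27, but equal weight for every cell gave -0.34 and -0.52, and thinning gave -0.25 and -1.14. A single cell held 86.7% of the wound bed batch 2 reads, with 247570 CPM of its own. The median level among cells with a read was 174.8 CPM in the wound bed, 244.9 CPM in the distal region and 1222 CPM in the control, and it was below that of the control in both batches in each of the other regions.

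**Figure D2:**
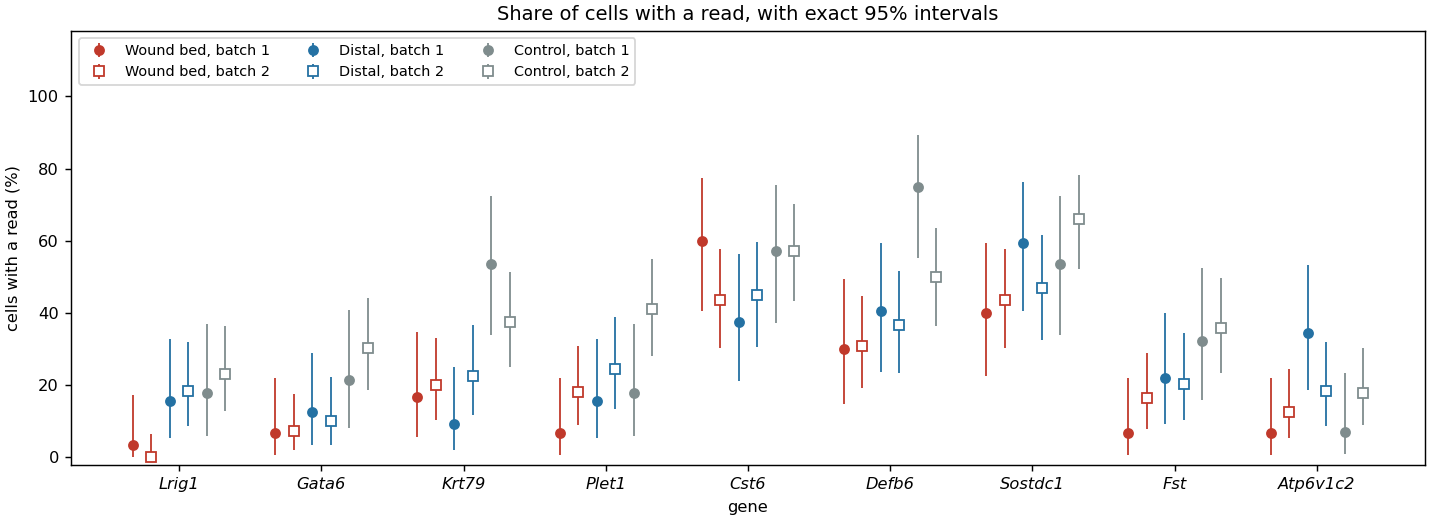
Share of cells with at least 1 read of each gene on each of the 6 plates, with exact 95% intervals for counting error. Wound bed plates lie lowest for Lrig1 and Gata6, both control plates lie above the other 4 for Krt79 and Defb6, and the shares of Cst6 overlap between regions.

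Sostdc1, a secreted antagonist of bone morphogenetic protein (BMP) and Wnt signalling, was the gene found in most cells. It had a read in 12 of 30 and 24 of 55 wound bed cells, 19 of 32 and 23 of 49 distal cells, and 15 of 28 and 37 of 56 control cells. The shares were 42.4% (31.7 to 53.5), 51.9% (40.5 to 63.1) and 61.9% (50.7 to 72.3) by region, with neighbouring intervals overlapping. Plate sums of 97.3 and 138.9 CPM in the wound bed, 210.7 and 290.9 CPM in the distal region, and 328.0 and 603.3 CPM in the control did not overlap between regions. The wound bed to control log2 ratios were -1.74 and -2.11, the wound bed to distal ratios -1.11 and -1.06, and the distal to control ratios -0.64 and -1.05. With every cell weighted equally the wound bed to control ratios were -0.62 and -2.43. Equal weight also turned the batch 1 ratio of distal to control positive, at 0.38, and thinning gave wound bed to control ratios of -0.96 and -2.59. The median level among cells with a read was 150.3 and 247.3 CPM in the wound bed, 539.5 and 402.1 CPM in the distal region, and 300.4 and 830.6 CPM in the control, lowest in the wound bed in both batches. No plate had more than 33.5% of its Sostdc1 reads in 1 cell, the lowest such maximum among the 9 genes.

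Fst, the secreted activin-binding protein follistatin, had a read in 2 of 30 and 9 of 55 wound bed cells, 7 of 32 and 10 of 49 distal cells, and 9 of 28 and 20 of 56 control cells. The shares were 12.9% (6.64 to 21.98), 20.99% (12.7 to 31.5) and 34.5% (24.5 to 45.7), with the wound bed interval below that of the control. Plate sums were 22.1 and 35.9 CPM in the wound bed, 67.02 and 46.4 CPM in the distal region, and 389.3 and 81.4 CPM in the control, again without overlap between regions. One cell held 77.3% of the reads of control batch 1. The wound bed to control log2 ratios were -4.08 and -1.16, and the distal to control ratios were -2.52 and -0.80. Without the satellite-rich cells these were -1.13 and -1.21 for the wound bed, still within the size rule, and 0.42 and -0.76 for the distal region. A pseudocount of 10 CPM gave a batch 2 wound bed ratio of -0.99, and cells with at least 2000 genes gave -0.69, both outside the rule. Among cells with a read the median level was 240.7, 167.4 and 176.5 CPM, highest in the wound bed.

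Atp6v1c2, a C subunit isoform of the vacuolar proton pump, had a read in 2 of 30 and 7 of 55 wound bed cells, 11 of 32 and 9 of 49 distal cells, and 2 of 28 and 10 of 56 control cells. The shares were 10.6% (4.96 to 19.1), 24.7% (15.8 to 35.5) and 14.3% (7.61 to 23.6), with the distal share above that of the control and overlapping intervals. Plate sums ran the other way between those regions, with 13.3 and 11.2 CPM in the wound bed, 33.6 and 31.7 CPM in the distal region, and 50.5 and 43.4 CPM in the control. A single cell held 97.8% of the control batch 1 reads, so its order between distal and control rests on that cell. The wound bed to distal log2 ratios of -1.28 and -1.42 met the size rule. The wound bed to control ratios were -1.85 and -1.87, but the gene had a read in fewer than 10% of the batch 1 cells of both regions and was not counted there. Control batch 1 had no Atp6v1c2 read without the satellite-rich cells. Against a floor of 3 counts in that plate, the wound bed was at least 5.88-fold higher and the distal region at least 14.8-fold higher. The batch 2 log2 ratios to control were then -1.86 for the wound bed and -0.34 for the distal region.

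**Figure D3:**
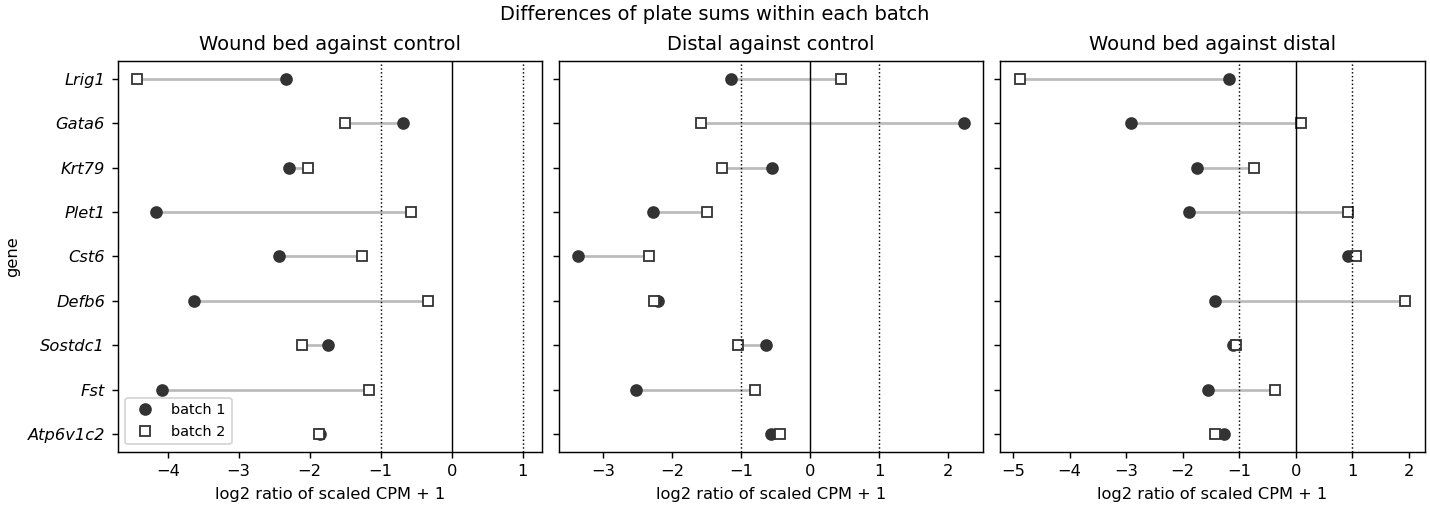
Log2 ratio of TMM-scaled CPM + 1 between plate sums for each gene, batch 1 as filled circles and batch 2 as open squares, with dotted lines at a 2-fold difference. All 9 genes lie left of 0 in both batches for the wound bed against control, and Gata6 (2.23 and -1.59) and Lrig1 (-1.15 and 0.45) have batches of opposite sign for distal against control; Lrig1 in wound bed batch 2 had no read, and its position there depends on the added 1 CPM.

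Set against all genes, the wound bed plates were lower by the size rule for 5 of the 8 genes considered (Lrig1, Krt79, Cst6, Sostdc1 and Fst), beside 8.24% of the 5776 genes with a read in at least 10% of cells of a compared region in each batch. None was higher, beside 7.83% of all genes considered. The median log2 ratio was -2.38 and -1.38 over the 8 genes, also with Lrig1 at its bound in batch 2, against 0.03 and -0.03 over all genes. For the distal region against control, 3 of 9 genes were lower (Plet1, Cst6 and Defb6), beside 6.09% of 6356 genes, and none was higher, beside 8.07%. Here the medians were -1.15 and -1.28 for the 9 genes, against 0.23 and -0.07 for all genes. Without the satellite-rich cells Plet1 left the distal set and Gata6 joined the wound bed set, which gave 2 genes lower in the distal region and 6 lower in the wound bed. These comparisons share the control cells, and their values stand side by side only. The wound bed against the distal region, which has no control cell, had 3 of 9 genes lower (Lrig1, Sostdc1 and Atp6v1c2) beside 9.59% of 6285 genes, and none higher beside 5.28%. That count was 0 with library totals in place of TMM; the TMM factor of distal batch 1 was 0.709, the lowest of the 6. Cst6 alone was higher in the wound bed than the distal region in both batches, at 0.93 and 1.07.

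Ordered loss over the 3 regions was counted by a rule chosen after the values were seen, wound bed below distal below control in each batch. Krt79, Sostdc1, Fst and Atp6v1c2 had that order, which is 4 of 9 genes beside 3.82% of the 6814 genes considered. The place of Atp6v1c2 among them rests on 1 cell of control batch 1, since without the top cell of each plate its distal to control log2 ratio there was 3.28. The opposite order was held by none of the 9, beside 2.7% of all genes. Without the satellite-rich cells 2 remained in order, Krt79 and Sostdc1, and with every cell weighted equally 2, Krt79 and Fst. Krt79 kept the order in each of the 9 alternatives run.

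Counted cell by cell, wound bed cells held a mean of 1.87 of the 9 genes, distal cells 2.44 and control cells 3.51. At least 3 of the genes had a read in 21 of 85 wound bed cells (24.7%, 15.99 to 35.3), 37 of 81 distal cells (45.7%, 34.6 to 57.1) and 55 of the 84 control cells (65.5%, 54.3 to 75.5). By batch these shares were 20% and 27.3% in the wound bed, 40.6% and 48.98% on distal plates, and 64.3% and 66.1% on control plates, so the order held in both batches. No read of any of the 9 was found in 19 wound bed, 16 distal and 2 control cells. Depth moved with these counts: across cells within a plate, the number of genes found had a mean Spearman correlation of 0.42 with detected genes and 0.30 with reads, over 6 plates. Thinned to 10000 reads, 19.2% of 78 wound bed, 27.3% of 77 distal and 51.8% of 83 control cells had at least 3, so wound bed and distal cells lay closer together and the control stayed above both. Without the satellite-rich cells the shares were 25%, 46.2% and 63.3%.

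**Figure D4:**
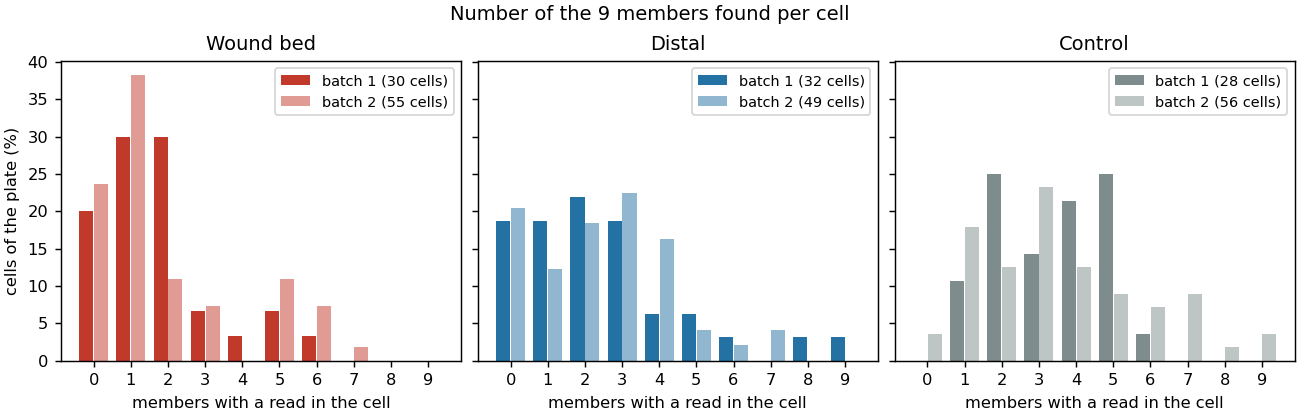
Share of each plate's cells by how many of the 9 genes had a read, dark bars for batch 1 and pale bars for batch 2. Wound bed cells gather at 0 to 2 genes, with a gap at 4 genes in batch 2 only. Control cells spread from 1 to 6 genes in batch 1 and from 0 to 9 in batch 2.

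Most wound bed cells held few of the genes and a small number held many, with a gap between them in batch 2 only. In batch 1 of the wound bed, 6 cells had 0 of the genes, 9 had 1, 9 had 2, 2 had 3, 1 had 4, 2 had 5 and 1 had 6. In batch 2, 13 cells had 0 of the genes, 21 had 1 and 6 had 2 and 4 had 3, whereas none had 4, 6 had 5, 4 had 6 and 1 had 7. The distal region had 8 of 49 cells at 4 genes and 2 at 5 in batch 2. Cells with 5 or more of the genes numbered 14 in the wound bed, 10 in the distal region and 25 in the control. Among these cells Lrig1 had a read in 0 of the 14 in the wound bed, where 1 of all 85 cells had one. It had a read in 60% of the 10 distal and 44% of the 25 control cells. Krt79 had a read in 92.9%, 70% and 80% of the wound bed, distal and control cells of this class, and Sostdc1 in 57.1%, 100% and 72%. The class was picked by reads of the same 9 genes, so these shares are not independent of that choice. Over all regions, the 49 cells with 5 or more had a median of 77663 reads and 2381 genes, against 31648 reads and 1494.5 genes in the 92 cells with 0 or 1. The part of depth in these counts was not tested beyond the thinning above.

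By rank correlation across cells, Krt79, Defb6 and Cst6 formed a trio with closer links than any other pair of the 9 genes. Cst6 and Defb6 had a read together in 83 of 250 cells, against 53.8 from the product of their shares on each plate. Krt79 and Defb6 were together in 57 cells against 31.9, and Krt79 and Cst6 in 55 against 34.4. Put another way, 86.4% of the 66 cells with a Krt79 read had one of Defb6, and 26.6% of the 184 cells without Krt79. The share of Krt79 cells with Defb6 was 87.5% in the wound bed, 85.7% in the distal region and 86.1% in the control, so that share was close in all 3 regions although Krt79 itself was found in fewer wound bed and distal cells. Mean within-plate Spearman correlations of the trio across cells were 0.66 for Cst6 and Defb6, 0.63 for Krt79 and Defb6 and 0.60 for Krt79 and Cst6, each at 0.43 or more on every plate. Cells of a plate share a library preparation and differ in depth, so these are descriptions without a test. Thinned to equal depth, Cst6 and Defb6 were together in 63 cells against 33.1. The ratio of shared cells to the product of shares did not set the trio apart. Without thinning it was 1.54 for Cst6 and Defb6, 1.79 for Krt79 and Defb6 and 1.60 for Krt79 and Cst6. For Plet1 and Atp6v1c2 it was 2.14, and for Gata6 and Krt79 2.05.

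Gata6 leaned towards the same cells. Krt79 had a read in 65.8% of the 38 cells with Gata6 and 19.3% of the 212 without it, and after thinning the pair was together in 11 cells against 5.19. All 6 wound bed cells with Gata6 had reads of Krt79, Cst6 and Defb6 as well. Lrig1 had low mean correlations with the other 8 genes over 5 plates, from -0.02 with Defb6 and 0.00 with Cst6 to 0.19 with Krt79. They were 0.18 with Gata6 and 0.17 with Sostdc1. Its ratio of shared cells to the product of shares, without thinning, ran from 1.07 with Defb6 and Cst6 to 1.96 with Atp6v1c2. That ratio was 1.81 with Gata6 and 1.72 with Plet1. Of the 33 cells with a Lrig1 read, 45.5% had one of Krt79, against 23.5% of the 217 without, and 75.8% had one of Sostdc1, against 48.4%. After thinning Lrig1 was together with Cst6 in 3 cells against 7.07, with Krt79 in 2 against 4.48 and with Defb6 in 5 against 6.89. It was together with Fst in 3 against 3.29 and with Atp6v1c2 in 1 against 1.96. The shared cells exceeded the product for Sostdc1 (9 against 7.71), Plet1 (5 against 3.21) and Gata6 (4 against 1.91). Sostdc1 ran against Cst6, with 56 cells holding both against 64.8 from the shares and a correlation of -0.22 that was below 0 on every plate (-0.41 to -0.07). The correlation of Sostdc1 with the sum of the other 8 genes was -0.06, so Sostdc1 did not follow the trio across these cells.

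**Figure D5:**
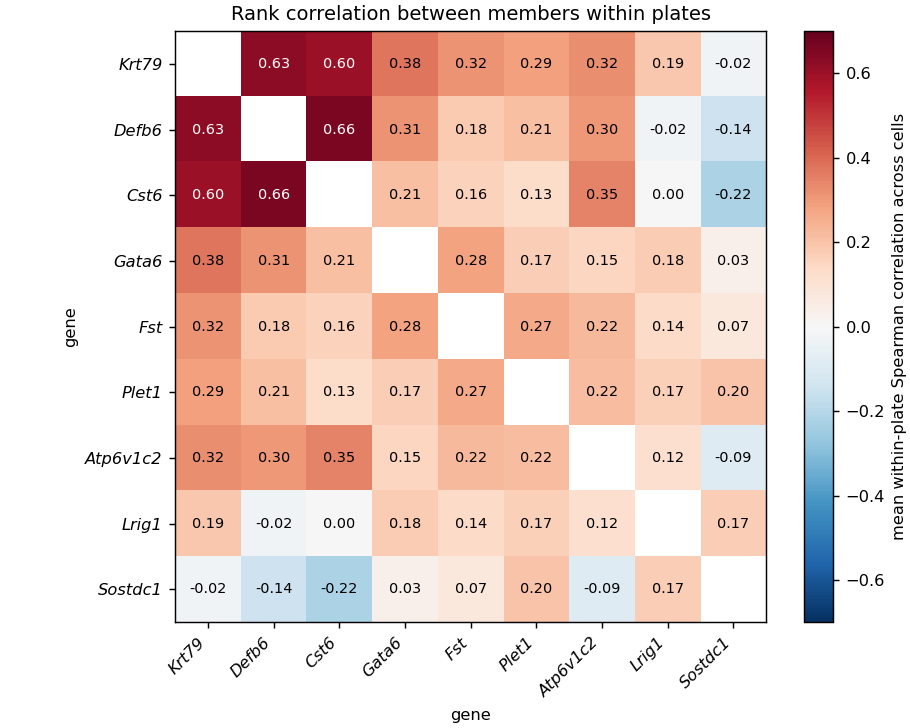
Mean over plates of the Spearman correlation across cells for each pair of the 9 genes, from within-plate log2(CPM + 1), with Lrig1 over 5 plates and the others over 6. Krt79, Defb6 and Cst6 form the dark block (0.60 to 0.66), and the Sostdc1 row is pale or blue (-0.22 with Cst6).

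Cells with reads of Krt79, Defb6 and Cst6 together, a class defined after the values were seen, numbered 3 and 11 in the wound bed, 3 and 8 on the distal plates and 10 and 17 on the control plates. As shares these were 16.5% of wound bed cells (9.31 to 26.1), 13.6% of the distal cells (6.98 to 23) and 32.1% of the control cells (22.4 to 43.2), or 14.1%, 11.7% and 26.5% at equal depth. The wound bed and control intervals overlapped. These 52 cells held 99.7% of all Krt79 reads, 96.9% of all Defb6 reads and 99.1% of all Cst6 reads. The plate sums of the trio were therefore nearly those of 14, 11 and 27 cells. Within them the median Krt79 level was 3146 CPM in the wound bed, 7708 CPM in the distal region and 5054 CPM in the control, and the median Defb6 level was 13845, 8007 and 14360 CPM. Median Cst6 was 1851, 3983 and 4502 CPM in the same order of regions. By batch, the wound bed and control medians were 7896 and 4777 CPM for Krt79 and 9663 and 2807 CPM for Cst6 in batch 1, against 2013 and 5054 CPM for Krt79 and 1821 and 12967 CPM for Cst6 in batch 2. The wound bed medians of these 2 genes, from 3 and 11 cells, were thus above the control in batch 1 and below it in batch 2. The ranges overlapped widely, such as 78.6 to 13703 CPM for Krt79 in the wound bed against 2.47 to 17544 CPM in the control.

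Other genes were also found in trio cells, and differences between regions were not tested. In the wound bed Gata6 had a read in 6 of the 14 trio cells and 0 of the 71 others, and Fst in 9 of 14 and 2 of 71. Krt17, a keratin of the follicle and of injured epidermis, had a read in 12 of 14 and 5 of 71. In the distal region, Gata6 had a read in 3 of 11 trio cells and 6 of 70 others, Fst in 4 of 11 and 13 of 70, and Krt17 in 10 of 11 and 15 of 70. In the control, Gata6 had a read in 13 of 27 trio cells and 10 of 57 others, Fst in 11 of 27 and 18 of 57, and Krt17 in 16 of 27 and 20 of 57. Over all regions Ly6a, the transcript of the sorted surface antigen, had a read in 14 of 52 trio cells and 119 of 198 others. These were 5 of 14 and 59 of 71 in the wound bed, 3 of 11 and 39 of 70 in the distal region, and 6 of 27 and 21 of 57 in the control. Sostdc1 had a read in 55.8% and 51.01% over all regions. By region the direction differed, with 7 of 14 and 29 of 71 in the wound bed, 8 of 11 and 34 of 70 in the distal region, and 14 of 27 and 38 of 57 in the control. Krt14, a keratin of the basal epidermal layer, had a read in 50 of 52 trio cells and 164 of 198 others. Of the keratins of the differentiating layers, Krt10 had a read in 46 of 52 and 129 of 198, and Krt1 in 22 of 52 and 74 of 198. Trio cells were deeper, with medians of 70531 reads and 2019 genes against 46883.5 reads and 1771 genes.

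The genes most like the 9 were found by the mean within-plate correlation, over 6 plates, with the mean log2(CPM + 1) of the 9, among 2077 genes with a read in at least 25% of cells. Among the 8 closest were Ptgr1 (0.53), Gstm5 (0.51), Egr2 (0.49), Lratd1 (0.45), Krt17 (0.44), Gstm1 (0.42) and Marcks (0.41). The lowest values were those of the metallothioneins Mt1 (-0.44) and Mt2 (-0.44), the ferritin heavy chain Fth1 (-0.42) and Cstdc5 (-0.36). Single genes had partners of their own, such as Krt15 (0.49) and Ptn (0.41) for Sostdc1, Krt79 (0.38) for Gata6, Ly6g6c (0.62) for Cst6, Krt17 (0.42) for Fst, Defb1 (0.38) for Plet1 and Egr2 (0.37) for Atp6v1c2. For Lrig1 the closest were Marcks (0.37) and the Wnt receptor Fzd7 (0.33), over 5 plates. Krt15, a keratin of basal and follicle stem cells, was itself lower in the wound bed than in the control, at -2.59 and -2.55.

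Further genes of the upper hair follicle were taken as a list of 17. In the wound bed 3 of 10 considered were lower than in the control, beside 8.24% of all genes considered. None was higher, beside 7.83%. Among the lower genes were the aldehyde dehydrogenase Aldh3a1 (-2.38 and -2.83) and the lipid carrier Apoe (-1.94 and -2.95). In the distal region 2 of 11 were lower than in the control, Krt17 (-1.83 and -1.29) among them, beside 6.09% of all genes considered. The list medians were -1.10 and -0.27 for the wound bed and -1.33 and -0.20 for the distal region, nearer to the all-gene medians in batch 2 than in batch 1.

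Partners of the signalling genes are given by the same rule. Over all genes considered, the shares were 8.24% lower and 7.83% higher for the wound bed against control, 6.09% and 8.07% for distal against control, and 9.59% and 5.28% for the wound bed against distal, so 1 gene of a short list is near that level. Among the EGF receptors, ligands and Lrig relatives around Lrig1, 2 of 5 considered were higher in the distal region than in the control, Lrig3 (2.28 and 2.29) and the receptor Erbb2 (1.10 in batch 2). In batch 1 Erbb2 had 52 distal reads and no control read, which makes it at least 8.08-fold higher against a floor of 3 counts in the control plate. In the wound bed 3 of 5 were lower than in the distal region, Erbb2 (-1.29 and -2.46), Erbb3 (-1.09 and -1.10) and Lrig3 (-2.03 in batch 1). This count was not recomputed with library totals in place of TMM, which took that of the 9 genes in the same comparison to 0. The batch 2 ratio of Lrig3, from 3 wound bed and 138 distal reads, was 43.1-fold lower (counting interval 14.4 to 211.4). Around Sostdc1, the wound bed had 2 of 7 Wnt and BMP genes lower than in the control, Fzd7 (-3.71 and -3.70) and the ligand Wnt4 (-1.28 and -1.61), and 1 higher, the receptor Lrp4 (1.71 in batch 2), which binds Sostdc1. In the distal region 2 of 9 were lower, the BMP target Id1 (-2.86 and -3.57) and the ligand Bmp7 (-2.16 and -1.40), and 1 was higher, Lrp4 (3.44 in batch 2). In batch 1 Lrp4 had 304 wound bed, 4828 distal and 3 control reads. The wound bed was thus 197.7-fold (67 to 963.8) and the distal region 750.4-fold (256.6 to 3640) above the control there, with counting intervals in parentheses. Around Fst, 2 of 7 activin and BMP genes were lower in the distal region, the receptor Acvr1 (-1.81 and -1.89) and Bmp7, with 1 higher, the signal transducer Smad2 (2.61 and 1.08), and 0 of 6 met the rule in the wound bed. Of 8 subunits of the pump's cytosolic sector, 1 was higher in the wound bed than in the control, Atp6v1c1 (3.26 and 1.99), the broadly expressed C subunit, and 0 met the rule in the distal region. Around Cst6, 4 of 10 protease, cystatin and transglutaminase genes were higher than in the control in each of the other regions, Stfa1, Stfa3, Csta1 and Tgm3. Stfa1, an intracellular cystatin, stood at 7.54 and 5.34 in the wound bed and 6.53 and 4.45 in the distal region, the opposite direction to the secreted cystatin Cst6. One gene of that list, the intracellular inhibitor Cstb, was lower in the distal region (-1.05 and -1.26).

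Markers of other cells in the sort moved with the regions too. The 11 suprabasal genes, which include Krt1 and Krt10 of the differentiating layers, summed to 33276 and 25617 CPM in the wound bed, 19872 and 9858 CPM in the distal region, and 15003 and 13270 CPM in the control. The 10 basal genes summed to 4104 and 7099 CPM, 5075 and 6722 CPM, and 5037 and 6221 CPM, and those ranges overlapped. Of the 8 suprabasal genes considered, 2 were higher in the wound bed than in the control, Mt4 (3.60 and 1.61) and Dsg1a (1.36 and 1.54), and 1 was lower, Calml3 (-2.82 and -1.04). Over all genes considered in that comparison, 7.83% were higher and 8.24% lower. Of the bulge and lower follicle list, 9 genes in the table summed to 461.2 and 572.4 CPM in the wound bed, 2285 and 957.6 CPM in the distal region, and 565.9 and 650.3 CPM in the control, with Krt75 at 0 on 5 plates and Cd34 at 0 on 4. Of its 5 genes considered, 2 were lower in the wound bed than in the control, beside 8.24% of all genes. These were Sox9 (-3.78 and -1.02) and Lhx2, both follicle stem cell transcription factors. Lhx2 had no wound bed read against 45 and 403 control reads, which makes it at least 7.69-fold and 89-fold lower against a floor of 3 counts per wound bed plate. None of the 5 met the rule in the distal region against the control. The 8 sebaceous gland genes summed to 573.5 and 761.7 CPM in the wound bed, 1460 and 430.9 CPM in the distal region, and 3142 and 561.3 CPM in the control, with no steady order. Of the 5 considered, 1 was higher in the wound bed than in the control, Acsl1 (1.84 and 1.82), beside 7.83% of all genes. The wound bed plates were thus highest in suprabasal sums and lowest in most of the 9 upper follicle genes, and the part of cell composition in the upper follicle differences was not tested. Of 9 immune genes none had a read in wound bed batch 2 or control batch 1, and their sum was at most 22.1 CPM on the other plates. The 7 fibroblast genes summed to 60.8 and 314.6 CPM in the wound bed and 3.70 and 42.98 CPM in the distal region. In the control they summed to 98.7 and 66.01 CPM, and Col1a2 and Pdgfra were at 0 on every plate. The 1 gene of that list considered, Sparc, was higher in the wound bed than in the control (2.88 and 2.38). Sparc had a read in 40% of wound bed, 19.8% of distal and 16.7% of control cells. The 3 melanocyte genes stayed at or under 1.41 CPM except for 288.3 CPM in distal batch 1.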

How the data were processed

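The deposited table holds whole-number counts of reads per gene and cell, not normalised, which the authors made with Salmon 0.13.1, Seurat and R 4.0.3 on mm10 (GRCm38), per the submitters' processing notes; the role of each tool is not given in the sources used here. Region, batch and plate came from the labels, and the replicates of a region are cells. All 250 columns were used, and no 2 cells had equal counts. No cell was removed and no doublets were called. Counts were summed per plate and brought to 1 scale with TMM factors from edgeR 4.0.16, run in R 4.3.3. Log2 ratios of CPM + 1 were taken within each batch. Genes considered had a read in at least 10% of cells of a compared region in each batch. Shares have exact 95% Clopper-Pearson intervals, and thinning drew 10000 reads per cell without replacement, leaving out 7 wound bed, 4 distal and 1 control cells with fewer. Spearman correlations were computed on log2(CPM + 1) within plates (Python 3.11.15, scipy 1.17.1). The scaling and ratio step was tested on simulated data. Named genes came from the 9 members, the 8 genes most like their mean, the 2 most like each member, and up to 4 genes per list and comparison that met the size rule. Not every list gene that met the rule is named. The 4 genes least like their mean, the trio class and the satellite-like genes were chosen after values were seen. Members and lists were chosen with earlier results of these data known. Alternatives covered scaling, pseudocount, weighting, thinning, cell filters, single batches, fold and detection limits. One gene that met these naming rules is counted but its values are not reported here.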

Additional observations from a re-analysis of the deposited data

How the results depend on the processing

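No paired analysis was possible because no test between regions was run and no animal is named; ratios were taken within batches. The wound bed against distal count of 3 lower genes was 0 with library totals, 1 with a pseudocount of 10 CPM, 1 with every cell weighted equally, 1 after thinning and 8 in batch 1 alone. The wound bed against control count of 5 was 3 with a pseudocount of 10 CPM and 3 after thinning, where 6 genes were considered. The distal against control count of 3 was 5 in batch 1 alone, 6 in batch 2 alone and 5 at a fold of 1.5. The count of 4 genes in order over the regions was 2 with every cell weighted equally and 7 in batch 1 alone. Without the satellite-rich cells it was 2. All alternatives of that count were added after seeing the data, as was every result without the satellite-rich cells. The share of cells with 3 or more of the genes was 23.5% of distal and 51.2% of control cells when 5 reads were required, and 27.3% and 51.8% after thinning. In cells with at least 2000 genes it was 38.5% of 26 wound bed and 60% of 45 distal cells. Without the satellite-rich cells the mean log2 ratio turned positive for Plet1 in distal against control (0.87) and for Atp6v1c2 in wound bed against control (1.02), means that rest on 2 and 0 reads in control batch 1; the cause was not tested. Of the other single-gene log2 ratios, 283 moved by less than the spread between batches and 66 by more. Of the single-gene shares, 149 stayed within their interval and 40 did not. Depth limits Lrig1 most, and the few cells that carry most reads of Krt79, Defb6, Cst6, Plet1 and Fst limit the plate sums of those genes.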
